A study of Mus musculus with 5 samples.

Results

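Channel genes of the Kcn, Scn and Cacn families were described in neural tube RNA of mouse embryos. They were chosen by symbol, as every gene whose name begins with a Kcn subfamily and number, with Scn, a number and a or b, or with Cacna, Cacnb or Cacng. This took 134 of the 23284 genes counted. Of these, 64 were expressed, meaning that their CPM (counts scaled for the total reads of the sample) was above 1 in at least 2 of the 5 samples. They belong to 12703 genes at or over that level. EpoR+/- mice had been intercrossed, and neural tubes freed from E8.5 embryos by hand and with enzyme gave polyadenylated RNA for sequencing. The EpoR-null group (EpoR -/-, 2 samples) carried the deletion of the erythropoietin receptor gene on both alleles, and no Cre or tissue-specific promoter is named. The controls were 2 wild type samples (EpoR +/+) and 1 heterozygote (EpoR +/-), so 1 of the 3 controls carried the deletion too. The age of E8.5 comes from the labels, and the study states a slightly later age. The labels give no sex and do not state whether a sample was 1 embryo or a pool. P-values set the difference between the groups against the spread between these samples. The comparison asks which of these genes differ in level when the receptor is missing.

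Voltage-gated channels open and close with the electrical potential across the membrane. Their alpha subunits form the pore, through which potassium (Kv), sodium (Nav) or calcium (Cav) passes, and auxiliary subunits set how many reach the surface and how fast they open. In the nervous system sodium and calcium channels carry the action potential and transmitter release and potassium channels end each impulse. At neural tube stages most cells are still dividing progenitors, and potassium channels help to set their resting potential. The symbol rule is wider than the name voltage-gated. It also takes 15 inwardly rectifying (Kir) genes, 14 2-pore leak (K2P) genes, Kcnn genes that calcium opens, 16 auxiliary genes of potassium channels and Kcnq1ot1, a noncoding RNA. Kcnn, Kir and K2P channels have no working voltage sensor, so the set is called channel genes here.

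The stretch of coding sequence around the potassium filter, the narrowest part of the pore, shows how alike the Kv alpha genes are and how far their reads can be told apart. The windows below are those of 5 expressed Kv alpha genes, with 45 coding bases each, from GENCODE M21 transcripts on build GRCm38, and the capitals mark the 15 bases of the filter codons. The number of bases unlike Kcna3 in the window was 11 for Kcna6, 14 for Kcna5 and Kcnc1, and 15 for Kcnd1.
Kcna3: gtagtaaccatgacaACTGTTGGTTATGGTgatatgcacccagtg
Kcna5: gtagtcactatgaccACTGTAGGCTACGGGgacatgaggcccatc
Kcna6: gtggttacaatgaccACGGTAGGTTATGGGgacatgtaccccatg
Kcnc1: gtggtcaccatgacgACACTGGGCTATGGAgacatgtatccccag
Kcnd1: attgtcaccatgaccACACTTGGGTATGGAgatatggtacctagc
The nearest windows to that of Kcna3 were those of Kcna1 and Kcna4, each with 10 unlike bases, and neither gene was expressed. In this most conserved stretch Kcna3 was therefore still distinct from every other member with such a window. A K2P gene is shown for contrast, because each of its subunits carries 2 such filter sequences, given with their place in the protein.
Kcnk5, from residue 98: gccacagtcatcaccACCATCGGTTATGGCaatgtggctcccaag
Kcnk5, from residue 203: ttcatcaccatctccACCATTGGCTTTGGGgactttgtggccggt
The Kcnk5 windows had 20 and 22 bases unlike Kcna3.

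Reads counted on genes ranged from 19316126 to 41169218 per sample, so that 3 reads equal 0.0729 to 0.155 CPM. Epor, the deleted gene, had 57 and 68 reads (2.35 and 1.62 CPM) in wild type replicates 1 and 2, 11 reads (0.475 CPM) in the heterozygote, and 7 and 19 reads (0.353 and 0.668 CPM) in EpoR-null replicates 1 and 2. It set the wild type samples apart from the EpoR-null samples, but the heterozygote lay between the EpoR-null samples. Epor did not pass the test (exact test of edgeR, log2 fold change -1.51, FDR 0.280). The heterozygote also stood apart in marker genes of other cell types. Primitive erythroid markers summed to 43.7 CPM there and to 600.5 to 1687 CPM in the other 4 samples, and endothelial markers to 10.7 against 106.5 to 248 CPM. That sample was also lowest in neural crest markers, with 34.8 against 102 to 159 CPM. Somite markers summed to 8.16 against 19.9 to 43.9 CPM, and surface ectoderm markers to 4.97 against 14.3 to 29.5 CPM. The neural progenitor markers summed to 1200 to 1564 CPM in all 5 samples, and heart markers to at most 2.17 CPM. Nes held the largest part of each progenitor sum, and its own level ran from 368 to 777 CPM. No marker gene passed the test between EpoR-null and control samples. In bulk RNA, fewer cells of a type and less RNA per cell cannot be told apart.

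Most channel genes were weakly expressed. Of the 64, 11 had more than 10 CPM on average over the 5 samples, 45 had 1 to 10 CPM and 8 had less than 1 CPM. Their median was 2.12 CPM, against 29.1 CPM for all tested genes, and 82.8% of them lay under 10 CPM, against 28.2% of all tested genes. The median length of the longest annotated transcript was 4302 bases in the channel genes and 3491 in all tested genes. In every sample 37 of the 64 exceeded 1 CPM. Of the 70 genes that were not expressed, 38 still had more than 10 reads over the 5 samples, 29 had 1 to 10 reads, and Kcnj1, Kcnk15 and Kcnmb3 had none in any sample. Just inside the threshold, the second highest CPM was 1.04 for Kcnn3 and 1.05 for Cacna1e and Kcnab3. Just outside it were Kcnd3 (0.921), Kcnq1 (0.874) and Kcnf1 (0.828).

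The families were unevenly represented. All 4 Cav beta genes, 3 of 4 Cav alpha2delta genes, 3 of 4 Nav beta genes and 6 of 10 Cav alpha1 genes were expressed, and 10 of the 16 auxiliary genes of potassium channels. Among the pore-forming potassium channel genes, 7 of 17 Kv alpha, 6 of 13 KCNQ and EAG, 4 of 8 calcium- or sodium-activated, 6 of 15 Kir and 5 of 14 K2P genes were. Of the Kv modifier genes, whose proteins form no channel alone, 2 of 10 were expressed (Kcng1 and Kcnv1). In the Nav alpha family, 4 of 10 were expressed, Scn8a with the highest mean CPM, and in the Cav gamma family 3 of 8.

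**Figure D1:**
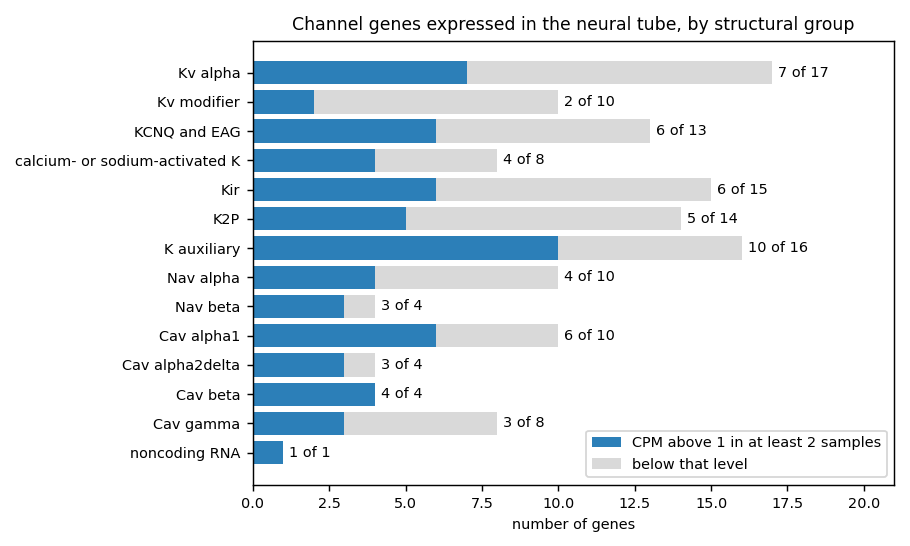
Number of channel genes in each structural group, with those over 1 CPM in at least 2 samples in blue and the others in grey. Cav beta genes were all expressed (4 of 4), while 2 of 10 Kv modifier genes were.

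Read counts per length of transcript put a few genes far above the rest. On the scale of mean CPM per kilobase of the longest annotated transcript, Cacnb3, a beta subunit that brings calcium channels to the membrane, had 11.5. Kcnh2, the ERG channel of the delayed rectifier current that ends the heart's action potential, had 10.6, and Cacng7, a gamma subunit that also handles AMPA receptors, had 10.4. Cacna1g, the T-type calcium channel that opens near the resting potential, had 6.93, and Kcne1l, a small single-pass subunit, had 6.32. Kcna3 had 0.756 on this scale, against a median of 0.448 over the 64 genes.

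**Figure D2:**
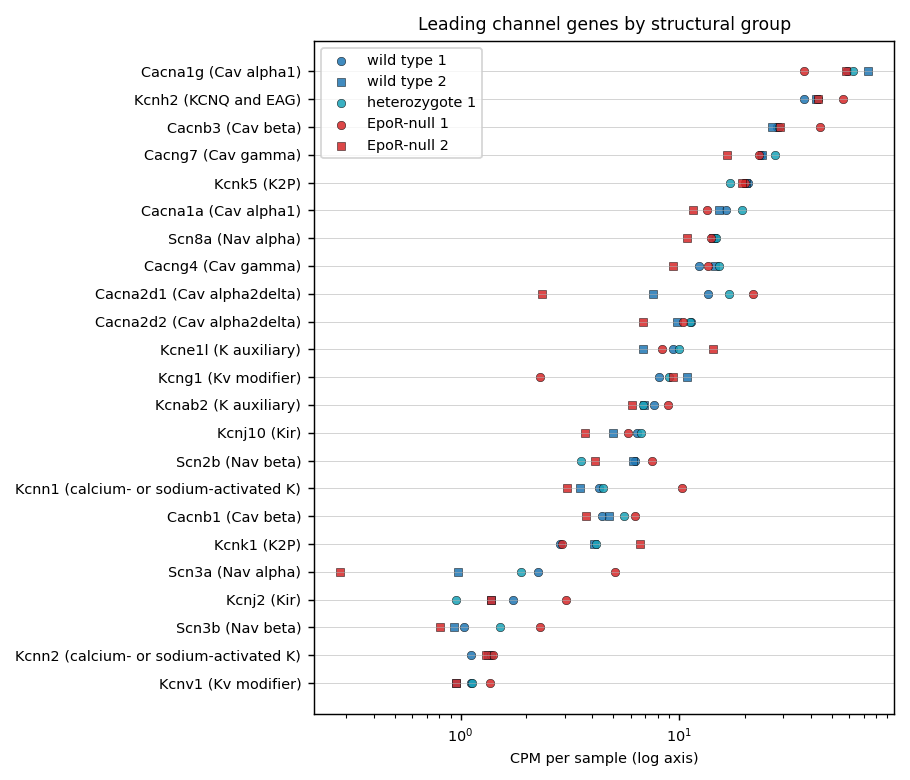
CPM in each of the 5 samples, on a log axis, for leading genes of 12 structural groups (up to 2 each, by mean CPM), ordered by mean CPM. Samples lie close together for Kcnk5 (17.1 to 20.7 CPM), whereas EpoR-null replicates 1 and 2 lie far apart for Cacna2d1 (21.8 and 2.36 CPM) and Scn3a (5.10 and 0.281 CPM).

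Between EpoR-null and control samples, 4.77% of all tested genes passed both thresholds of the exact test of edgeR (p < 0.001 and FDR < 0.05), 3.84% with a lower level in EpoR-null samples and 0.929% with a higher level. Kcna3 was known from earlier results of these data to be among them and brought the set into view, so it is described without a test and the counts that follow leave it out. Of the other 63 genes, 0 passed both thresholds of the exact test. At FDR alone 0 passed, against 7.31% of all tested genes, and 1 had an unadjusted p under 0.05 (Cacna1c), against 19.8%. DESeq2 put 0 of the 63 past both thresholds, against 8.09% of all tested genes, but gave no adjusted p for 43 of them. The quasi-likelihood F-test put 0% of all tested genes past both thresholds, so its 0 of 63 says nothing about channel genes. At an unadjusted p under 0.05 these tests gave 2 of the 63 each (Cacna1a and Cacna1c), against 24% of all tested genes in the quasi-likelihood F-test and 24.7% in DESeq2. Both EpoR-null samples lay below all 3 controls in 10 of the 63 genes (15.9%, against 22.1% of all tested genes) and above them in 4 (6.35%, against 21.2%). The 2 groups overlapped in 49. Log2 fold changes were negative in 26 of 63 (41.3%, against 43.8% of all tested genes), with a median of 0.06, as for all tested genes (0.06), and a range of -1.02 to 0.94. Their median standard error was 0.46, against 0.23 for all tested genes, and 62 of the 63 95% intervals held 0. The filter itself bears on these counts, since 5 genes passed it with no EpoR-null sample over 1 CPM (Kcna3, Kcnj12, Kcnn3, Kcnq5 and Kcnt2) and 0 passed through the EpoR-null samples alone.

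**Figure D3:**
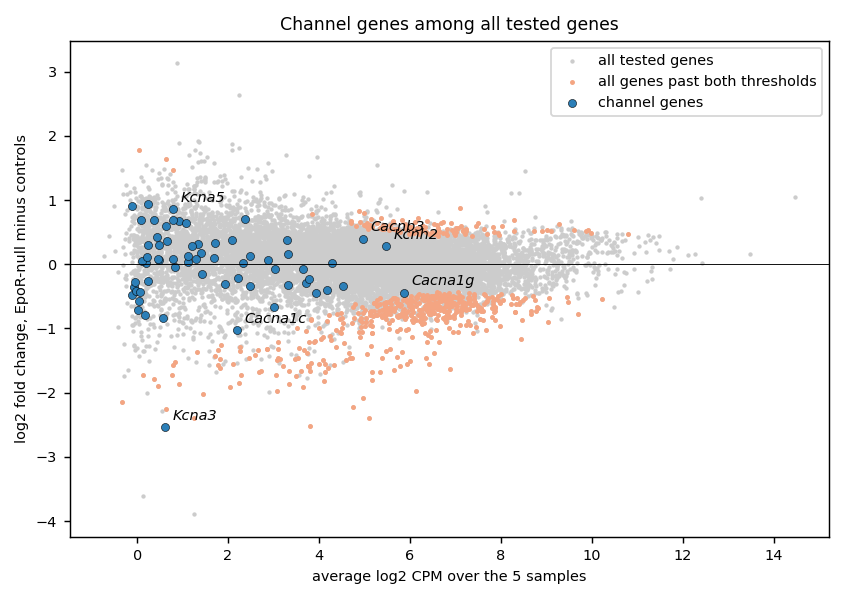
Log2 fold change of EpoR-null against control samples over average log2 CPM for all 12703 tested genes (grey), all genes past both thresholds (orange) and the 64 channel genes (blue). Kcna3 sits at -2.53 and the other channel genes between -1.02 and 0.94, mostly at the low end of expression.

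Kcna3 encodes Kv1.3, a delayed rectifier potassium channel best known from lymphocytes and microglia and also made in neurons. In GENCODE M21 on GRCm38 it lies on chromosome 3 from 107036169 to 107038070, on the plus strand, as 1 exon of 1902 bases that no exon of another gene overlaps, with a coding sequence of 528 residues. Wild type replicates 1 and 2 gave 46 and 92 reads, the heterozygote 54, and EpoR-null replicates 1 and 2 only 11 and 6. On the CPM scale the same samples had 1.90, 2.19, 2.33, 0.555 and 0.211, in that order. The control mean was 2.14 ± 0.221 CPM (SD, n = 3) and the EpoR-null mean 0.383 ± 0.243 CPM (SD, n = 2). The groups did not overlap, and the heterozygote was the highest of the 5 samples, although its Epor level lay among the EpoR-null samples. The fitted log2 fold change was -2.53, with a standard error of 0.54. It was -3.32 without EpoR-null replicate 1, -1.94 without replicate 2 and -2.46 without the heterozygote. Immune cell markers summed to between 0.405 and 1.77 CPM over the samples, and the T cell gene Cd3e had no read in any of them. The quasi-likelihood F-test and DESeq2 gave much the same fold change (-2.52 and -2.53). Kcna3 passed the expression filter through the controls alone, and EpoR-null replicate 2 held fewer than 10 of its reads.

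The other Kv alpha genes did not pass the test. Kcna6, which encodes Kv1.6, had 3.55, 3.36 and 1.81 CPM in the wild type and heterozygote samples and 5.70 and 1.65 CPM in EpoR-null replicates 1 and 2. Kcna5, which encodes Kv1.5, had 1.57, 1.21 and 1.04 against 3.43 and 1.23 CPM. In both genes EpoR-null replicate 1 was above every control, while replicate 2 lay below them for Kcna6 and among them for Kcna5. The log2 fold changes were 0.33 (95% interval -0.94 to 1.60) and 0.86 (-0.26 to 1.98). The closest relatives of Kcna3 that were expressed thus gave no call, and Kcna1, Kcna2, Kcna4, Kcna7 and Kcna10 were under the expression threshold. Summed over all 17 Kv alpha genes, expressed or not, CPM was 34.1 to 39.5 in controls and 34.1 and 29.4 in EpoR-null replicates 1 and 2.

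Calcium channel pore genes held the lowest p-values of the 63 genes. Cacna1c lies on chromosome 6, from 118587240 to 119196418 on the minus strand, and encodes the L-type channel Cav1.2. Controls had 6.19, 5.69 and 5.14 CPM (wild type replicates 1 and 2, then the heterozygote), and EpoR-null replicates 1 and 2 had 3.43 and 2.18 CPM. The control mean was thus 5.67 ± 0.526 CPM (SD, n = 3), and that of the EpoR-null samples 2.81 ± 0.884 CPM (SD, n = 2). Both EpoR-null samples lay below every control, but the difference missed the FDR threshold (exact test of edgeR, log2 fold change -1.02, standard error 0.38, FDR 0.0946). In a likelihood-ratio test with length and GC offsets the log2 fold change was -0.56 (FDR 0.862). Without EpoR-null replicate 1 it was -1.38 (FDR 0.00878), yet its p of 0.00178 in that exact test still missed 0.001.

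Cacna1g, the T-type channel, lies on chromosome 11 from 94408391 to 94474198 on the minus strand and had the highest mean CPM of the 64 genes (58.1). Its values were 59.0, 73.3 and 62.7 CPM in controls and 37.4 and 58.1 CPM in EpoR-null replicates 1 and 2. The second EpoR-null sample lay just under the lowest control, and the log2 fold change of -0.44 (standard error 0.24) did not pass (exact test of edgeR, FDR 0.308). Cacna1a, the P/Q-type channel of presynaptic terminals, had 16.3, 15.3 and 19.4 against 13.4 and 11.5 CPM (-0.45, FDR 0.331). Here too both EpoR-null samples lay below the controls. With the length and GC offsets the log2 fold changes were -0.14 for Cacna1g and -0.19 for Cacna1a. Summed over all 10 Cav alpha1 genes, expressed or not, CPM was 94.4 to 106 in controls and 78.2 and 77.8 in EpoR-null samples. Cacna1g held the largest part of each sum (37.4 and 58.1 CPM in EpoR-null replicates 1 and 2). The sums therefore do not show a fall shared by the family. Of the 6 expressed genes, 4 had a negative log2 fold change. Cacna1h, another T-type channel, did not share this order, with 9.16, 7.59 and 11.9 CPM in controls and 17.6 and 3.80 in EpoR-null replicates 1 and 2.

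**Figure D4:**
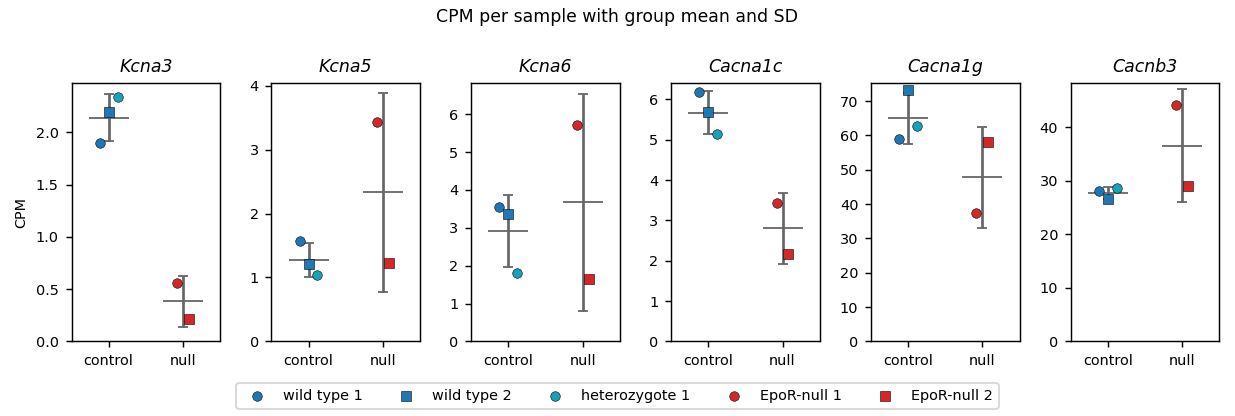
CPM per sample (points), group mean (horizontal line) and SD (bars) in 3 control and 2 EpoR-null samples for 6 channel genes. For Kcna3 and Cacna1c all EpoR-null points lie below the controls, while for Kcna5 and Kcna6 EpoR-null replicate 1 is the highest sample and replicate 2 lies near the controls.

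None of the auxiliary calcium channel genes passed the test. Cacnb3, on chromosome 15 from 98630840 to 98644529, had 28.1, 26.6 and 28.7 CPM in controls and 44.1 and 29.1 CPM in EpoR-null replicates 1 and 2. Both EpoR-null values lay above the controls, the second by little, and the log2 fold change was 0.40 (FDR 0.352), or 0.20 with the offsets. Cacnb1 had 4.46, 4.78 and 5.57 against 6.26 and 3.76 CPM (0.02, FDR 0.987). The gamma subunit gene Cacng7 had 23.8, 24.0 and 27.6 CPM in controls and 23.1 and 16.6 in EpoR-null samples (-0.34, FDR 0.469). Its relative Cacng4 had 12.3, 14.7 and 15.2 against 13.6 and 9.43 CPM. Cacna2d1 and Cacna2d2 encode alpha2delta subunits, which carry the channel to the surface and bind gabapentin. Cacna2d2 had 11.3, 9.78 and 11.3 against 10.4 and 6.86 CPM (-0.32, FDR 0.635). Cacna2d1 had 13.6, 7.64 and 16.9 CPM in controls and the widest gap between EpoR-null samples, as a fold, of the calcium channel genes, 21.8 and 2.36 CPM. Its fitted log2 fold change of -0.07 (95% interval -1.79 to 1.64) describes neither sample.

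Sodium channel genes were led by Scn8a, the Nav1.6 channel of nodes and axon initial segments. It had 14.7, 14.4 and 14.8 CPM in controls, within a narrow range, and 13.98 and 10.9 CPM in EpoR-null replicates 1 and 2 (-0.23, FDR 0.669). Scn3a, the Nav1.3 channel of the embryonic brain, had 2.27, 0.976 and 1.90 CPM in controls and 5.10 and 0.281 CPM in EpoR-null replicates 1 and 2. This 18.1-fold gap between samples of the same genotype was the widest of the 64 genes. Scn2b, a beta subunit that links the channel to adhesion proteins, had 6.27, 6.14 and 3.54 against 7.52 and 4.12 CPM. Scn3b, another of the family, had 1.03, 0.928 and 1.51 against 2.32 and 0.809 CPM. No sodium channel gene passed the test, and the lowest FDR among the 4 alpha genes was 0.494.

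Of the remaining potassium channel genes, Kcnh2 lies on chromosome 5 from 24319589 to 24351604 on the minus strand. Its 37.2, 42.6 and 43.3 CPM in controls and 56.3 and 43.3 CPM in EpoR-null samples gave a log2 fold change of 0.28 (FDR 0.440), with replicate 2 level with the highest control. Kcnk5, a leak channel, differed least between samples of the 11 genes over 10 CPM, with 20.7, 20.3 and 17.1 CPM in controls and 20.1 and 19.4 in EpoR-null replicates (0.03, 95% interval -0.40 to 0.45). Kcnj10, the Kir4.1 channel known from glia, had 6.40, 4.97 and 6.69 against 5.85 and 3.69 CPM. Kcnj2, or Kir2.1, had 1.73, 1.38 and 0.950 against 3.03 and 1.37 CPM. Neither Kir gene passed the test.

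Kcnn1, the SK1 channel that calcium opens, had 4.29, 3.52 and 4.49 CPM in controls and 10.3 and 3.06 CPM in EpoR-null replicates 1 and 2. Kcnn2, or SK2, had 1.11, 1.33 and 1.38 against 1.41 and 1.30 CPM. The sodium-activated channel gene Kcnt2 had 1.36, 1.45 and 0.950 against 0.757 and 0.704 CPM (-0.79, FDR 0.366), which puts both EpoR-null samples below the controls. Kcnip1, a calcium-binding partner of Kv4 channels, had 1.16, 1.33 and 1.99 against 2.42 and 2.32 CPM (0.67, FDR 0.389), with both above the controls. The auxiliary gene Kcne1l had 9.37, 6.83 and 10.02 against 8.32 and 14.2 CPM, and Kcnab2, a cytoplasmic beta subunit of Kv1 channels, had 7.68, 6.92 and 6.82 against 8.88 and 6.09 CPM. Kcnv1, a Kv modifier, had 1.11, 0.952 and 1.12 against 1.36 and 0.950 CPM. The noncoding Kcnq1ot1, which silences neighbouring imprinted genes, had 8.83, 7.28 and 8.81 against 8.32 and 7.42 CPM. Its exons overlap Kcnq1 on the other strand, and the strand setting of the counting is not given in the sources used here, so reads of the pair cannot be told apart. Overlapping exons of other genes were also annotated for Cacna1a, Cacna1h, Cacna2d2, Cacnb1, Kcna6, Kcnab2, Kcnk1, Kcnn1, Kcnn2 and Kcnt2, whose counts share that uncertainty.

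The spread between the EpoR-null samples was wide in this set. More than 1.5-fold higher in EpoR-null replicate 1 than in replicate 2 were 36 of the 64 genes (56.2%), against 17.3% of all tested genes, and 8 (12.5%) were lower by that factor, against 9.53%. Among weakly expressed genes, under 10 CPM on average, 33 of 53 channel genes (62.3%) and 35.6% of 3580 tested genes were higher in replicate 1. In wild type replicate 1, 29 of the 36 genes were higher than in wild type replicate 2, counted at any difference. At more than 1.5-fold, 8 of the 64 genes were higher in wild type replicate 1 than in wild type replicate 2. The share among all tested genes was not counted for either number. The wild type and EpoR-null replicate differences correlated at 0.581 over the channel genes and at 0.468 over all tested genes. The genes with the widest gaps after Scn3a were Cacna2d1 (9.27-fold), Kcnh1 (8.25-fold), Cacna2d3 (6.18-fold) and Cacna1h (4.64-fold). Markers of several cell types had the same order. All 10 newborn neuron markers were higher in replicate 1 than in replicate 2, and they summed to 1187 and 277 CPM there, with 368 to 608 CPM in the controls. The lowest and highest of the 5 samples in this sum were thus both EpoR-null. Also higher in replicate 1 were 5 of 5 primitive erythroid markers (summed CPM 1687 against 961), 5 of 5 endothelial markers (205 against 106.5), 4 of 5 neural crest markers (159 against 102) and 4 of 5 somite markers (43.9 against 19.9). Of the 6 neural progenitor markers 1 was higher in replicate 1, Nes (777 against 368 CPM), although their sum was 1416 against 1200 CPM. Surface ectoderm markers ran the other way, with 1 of 4 higher in replicate 1 and sums of 14.3 against 29.5 CPM. Dcx, a microtubule protein of migrating neurons, had 34.0, 14.7 and 40.9 CPM in controls and 101 and 4.33 CPM in EpoR-null replicates 1 and 2. The part of these cell types in the channel values was not tested. Some channel genes ran the other way. Kcng1, a modifier of Kv2 channels, had 8.13, 10.8 and 8.98 CPM in controls and 2.32 and 9.39 CPM in EpoR-null replicates 1 and 2. Kcnk1, a leak channel, had 2.85, 4.09 and 4.15 against 2.93 and 6.61 CPM. For Kcng1 1 EpoR-null sample matched the controls and the other did not, and the difference did not pass (-0.66, FDR 0.609).

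**Figure D5:**
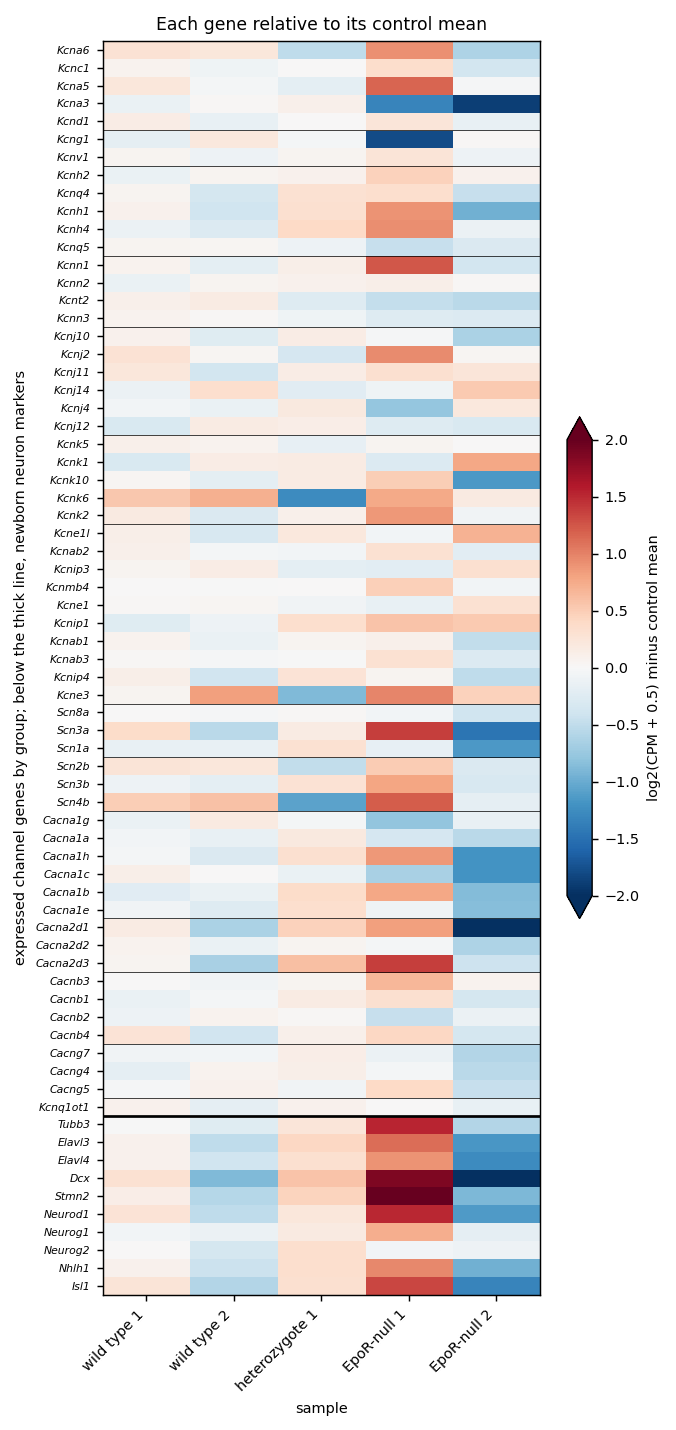
Log2(CPM + 0.5) of expressed channel genes minus the gene's control mean, in the 5 samples, for 60 of the 64 genes, grouped by structure, with the 10 newborn neuron markers below the thick line. EpoR-null replicate 1 is mostly red and replicate 2 mostly blue among both the channel genes and the neuron markers, and Kcna3 is blue in both.

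In the heterozygote, 3 channel genes were far below the other controls. Scn4b, a sodium channel beta subunit, had 0.130 CPM there and 0.668 to 2.57 CPM in the other 4 samples. Kcne3, a partner of KCNQ channels, had 0.0432 CPM, from a single read, against 0.536 to 1.46 CPM. The leak channel gene Kcnk6 had 0.475 CPM against 2.15 to 3.43 CPM. The heterozygote was also the lowest sample in the summed erythroid, endothelial, neural crest, somite and surface ectoderm markers, as given above. The part of those cells in these 3 genes was not tested.

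Genes that act beside these channels are given by their calls, to be read against the 4.77% of all tested genes called. Of 12 genes for other channels or their partner proteins, 10 were tested, 1 was lower in EpoR-null samples and 0 were higher. The lower gene was Trpm7, a channel fused to a kinase, with 123, 98.6 and 115 CPM in controls and 82.0 and 62.1 CPM in EpoR-null replicates (exact test of edgeR, log2 fold change -0.64, FDR 0.0206). Of 24 proteins that bind, anchor or regulate the channels, 23 were in the tables and 13 were tested, of which 1 was lower and 0 higher. This was Cachd1, a protein resembling the alpha2delta subunits, with 105, 107 and 110 CPM in controls and 82.9 and 70.7 CPM in EpoR-null samples (-0.49, FDR 0.0165). Rest encodes the repressor that keeps many neuronal genes, channel genes among them, silent outside neurons. It had 29.2, 25.9 and 26.6 CPM in controls and 10.999 and 7.39 CPM in EpoR-null samples (exact test of edgeR, log2 fold change -1.57, FDR 4.264e-06). The quasi-likelihood F-test put 0 of all tested genes past both thresholds, with an FDR of 0.0590 for Rest, and with the replicate block Rest passed (FDR 0.0410). With length and GC offsets the log2 fold change of Rest was -1.22 in the likelihood-ratio test (FDR 7.7e-06). With offsets and the replicate block it was -1.205 and did not pass (quasi-likelihood F-test, FDR 0.152), and 0 of all tested genes passed there. In the exact test the median log2 fold change of the 63 channel genes beside Rest was 0.06. The part of Rest in the channel values was not tested.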

How the data were processed

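RNA-seq read counts per gene were deposited by the authors as 1 table per sample, without normalization. The submitters' processing notes name FastQC, Trimmomatic 0.32, TopHat2 2.1.0, HTSeq 0.6.1, edgeR and build mm9, whereas the study's methods name hg19; the annotation is not given in the sources used here. HTSeq summary lines were left out (no-feature reads were 8.12% to 11.03%). Gene positions, lengths and overlaps came from GENCODE M21 on GRCm38, matched by symbol (all 64 expressed channel genes and 99.1% of tested genes had a length).

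The main test used edgeR 4.0.16 under R 4.3.3, with limma 3.58.1 loaded: genes with over 1 CPM in at least 2 samples on plain totals, TMM scaling, tagwise dispersions, exact test of EpoR-null against all controls and Benjamini-Hochberg adjustment (FDR) over 12703 genes, called at p < 0.001 and FDR < 0.05. Printed CPM use TMM-scaled totals, except that CPM at the expression threshold and for 3 reads use plain totals. Standard errors came from the negative binomial information, and intervals are 1.96 standard errors. DESeq2 1.42.0 and other alternatives are in the closing section. The exact test, DESeq2, the quasi-likelihood F-test without a block and the likelihood-ratio test without and with offsets were tried on simulated data. The fits with a replicate block were not. The samples differed beyond counting noise (chi-square per degree of freedom at least 11.9 in every pair).

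The members, marker lists and related genes were chosen with earlier results of these data known. Named genes were those called, Kcna3, the 2 with the highest mean CPM in each structural group, the 6 with the lowest p among those not called, the 3 on each side of the expression threshold, Epor and Rest. Others were named after their values were seen, and some genes under this rule are not reported here. Other marker lists summed, in CPM, to 34.8 to 159 for neural crest, 8.16 to 43.9 for somite and 4.97 to 29.5 for surface ectoderm.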

Additional observations from a re-analysis of the deposited data

How the results depend on the processing

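Kcna3 was the 1 channel gene called by the exact test (1.56% of the 64, against 4.77% of all tested genes). It brought the set into view, so its calls only describe the settings and lend the set no support. Against this 1, 0 were called by the quasi-likelihood F-test without or with a replicate block. DESeq2, which gave no adjusted p for Kcna3 or for 43 of the other 63, also called 0. With a minimum of 10 reads in every sample, which left Kcna3 untested, the count was 0. It was 0 too in the quasi-likelihood F-test with a replicate block and offsets for length and GC. Leaving out 1 sample gave 1 to 5. Without EpoR-null replicate 2 the 5 were Cacna1g (-0.80), Cacnb3 (0.67), Kcna3, Kcng1 (-2.01) and Kcnn1 (1.34), and without EpoR-null replicate 1 the 2 were Cacna2d1 (-2.42) and Kcna3. The lone EpoR-null sample is then assumed to vary like the controls. Scaling by RLE or by library size only, testing without a filter, FDR alone and the likelihood-ratio test without and with offsets each gave 1. Over all genes, 606 were called by the exact test, 0 by the quasi-likelihood F-test, 291 with the replicate block, 1028 by DESeq2, 180 by the likelihood-ratio test with offsets, 0 by the quasi-likelihood F-test with offsets and the replicate block, and 115 to 2296 when 1 sample was left out.

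Of 10 channel genes followed through the alternatives, signs turned in 3. The 10 were Kcna3, the 6 others with the lowest p, and Cacna2d1, Kcng1 and Kcnn1, whose EpoR-null samples lay far apart. The 3 that turned were these last, so the split follows from how the list was made. Cacna2d1 was 0.19 with the length and GC offsets, 0.021 with offsets and the replicate block, and from -2.42 to 0.78 when 1 sample was left out. Kcng1 ran from -2.01 to 0.0082 and Kcnn1 from -0.42 to 1.34. Cacna1c, Cacna1a, Cacna1g, Cacnb3, Kcnt2, Kcnip1 and Kcna3 kept their direction in each alternative that could test them, Kcna3 at -3.32 to -1.94. The cause was not tested. Requiring over 1 CPM in every sample left 37 expressed channel genes in place of 64, and over 0.5 CPM in 2 samples gave 75. Wild type and EpoR-null samples share numbers 1 and 2, but the labels give the numbers no shared litter or day. Across genes, which are not independent, the differences between replicates 1 and 2 correlated at 0.468. Of the 63 channel genes other than Kcna3, 23 of 59 still tested turned sign without EpoR-null replicate 1, 12 of 62 without EpoR-null replicate 2, and 2 to 7 without a control. Depth limits the weakest genes most, since 3 reads are 0.0729 to 0.155 CPM.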
